A study of Mus musculus with 6 samples.

Results

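The cytosolic RNA sensing genes of mouse hematopoietic stem cells (HSCs) were compared between wild-type (WT) mice and mice with a targeted mutation of *Irf1* (*Irf1-/-*), whose product regulates transcription in the interferon (IFN) response. The 6 genes were chosen by symbol for their place in this pathway: *Ddx58* (RIG-I), *Ifih1* (MDA5), *Dhx58* (LGP2), *Mavs*, *Ddx60*, and *Eif2ak2* (PKR). All 6 were found among the 26264 genes of the deposited table. Bulk RNA sequencing had been performed on HSCs sorted from the bone marrow of untreated females aged 8 weeks. Each of 3 WT C57Bl/6 mice and 3 *Irf1-/-* mice (B6.129S2-Irf1tm1Mak/J) gave 1 library. The mutation is present in the whole body, so that HSCs in *Irf1-/-* mice also live among neighbours that carry it, and cells of the environment cannot be told apart from the HSCs as the origin of a difference. Libraries carry the replicate numbers 2, 3, and 4 in both genotypes.

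RNA of viruses in the cytosol, and some RNA of the cell itself, is recognised by RIG-I, which binds short double-stranded RNA with a 5′ phosphate end, and by MDA5, which binds long double-stranded RNA. Both pass the signal through their CARD domains to MAVS on the mitochondrial surface, from where the kinases TBK1 and IKKε activate IRF3 and IRF7 and IFN genes are transcribed. LGP2 belongs to the same helicase family but lacks CARD domains, and it modulates the other receptors. PKR is a kinase that binds double-stranded RNA and phosphorylates the translation factor eIF2α, and DDX60 is a large helicase of the antiviral response. Most of these genes are themselves induced by IFN, and HSCs express IFN-stimulated genes without infection.

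*Ddx60* was the gene whose transcript differed between genotypes. The 250 bases before its annotated start (GRCm38.p6, chr8:61927837-61928086, plus strand, RefSeq) are shown because they hold the core of the IFN-stimulated response element (ISRE), to which IRF proteins bind, taken here as GAAA, any 2 bases, and GAAA. Capitals mark the pattern, which occurs at positions −53 to −44 and −19 to −10 from the start.
Ddx60: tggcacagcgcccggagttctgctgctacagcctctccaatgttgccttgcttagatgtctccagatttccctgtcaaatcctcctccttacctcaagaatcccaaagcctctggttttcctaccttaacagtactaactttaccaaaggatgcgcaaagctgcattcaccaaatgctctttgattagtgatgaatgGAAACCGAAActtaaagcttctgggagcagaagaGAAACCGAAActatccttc

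RefSeq windows of 300 bases, from 250 before to 50 after the start, were matched for 5 of the 6 genes, and *Dhx58* was not matched. The ISRE core, searched on both strands, was found in 4 of these 5 windows, compared with 3.44% of all 32851 windows of this length. The matches of the other 3 genes are shown in stretches of 30 bases, again in capitals, to set them beside those of *Ddx60*. They lie at chr4:40239804-40239833, chr2:62646206-62646235, and chr17:78882535-78882564 (GRCm38.p6, each on the minus strand).
Ddx58: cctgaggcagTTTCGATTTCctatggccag
Ifih1: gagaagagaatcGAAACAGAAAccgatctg
Eif2ak2: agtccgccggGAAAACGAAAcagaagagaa

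In *Ddx58*, whose match is on the opposite strand, the pattern covers positions 3 to 12 after the start. It covers positions 33 to 42 in *Ifih1* and 19 to 28 in *Eif2ak2*. The matches of *Ddx60* were thus upstream of the start, and those of the other 3 genes downstream of it. The window of *Mavs* held none, which says no more than that these letters do not occur in it. The pattern TTCNNNGAA, to which STAT dimers bind, was found in 1 of the 5 windows, that of *Eif2ak2*, and in 8.30% of all windows. A match describes the sequence and is not a measured binding site.

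Reads counted on genes ranged from 43138521 to 57281017 in *Irf1-/-* libraries and from 43267486 to 59658080 in WT libraries, and the 6 sensor genes had between 956 and 7705 reads in a library. The values given here are normalized counts, that is, reads divided by 1 size factor per library. *Irf1* itself had 10122, 11120, and 12057 normalized counts in WT replicates 2, 3, and 4, and 9267, 9524, and 9287 in the corresponding *Irf1-/-* libraries. Reads on the targeted gene were therefore still counted in *Irf1-/-* HSCs, with all 3 libraries below all 3 WT libraries (log2 fold change −0.24, SE 0.088, adjusted *P* = 0.170, limma). Which part of the gene these reads cover was not examined.

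The 17404 genes whose normalized counts averaged 10 or more were tested with limma on a log2(normalized count + 1) scale. Fold changes on this scale are *Irf1-/-* relative to WT. Genes were called where the adjusted *P* was under 0.05 and the absolute log2 fold change exceeded 0.58. One sensor gene, *Ddx60*, was called lower and 0 were called higher, where 0.954% of all tested genes were called lower, 0.96% higher, and 1.91% either way. edgeR and DESeq2 likewise called 1 sensor gene lower and 0 higher, and at an unadjusted *P* under 0.05 in limma *Ddx60* was again the 1 gene of the 6, beside 16.5% of all tested genes. The median log2 fold change of the 6 genes was −0.013, and that of all tested genes was −0.0028. The plot of levels by library shows the values of each gene.

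**Figure D1:**
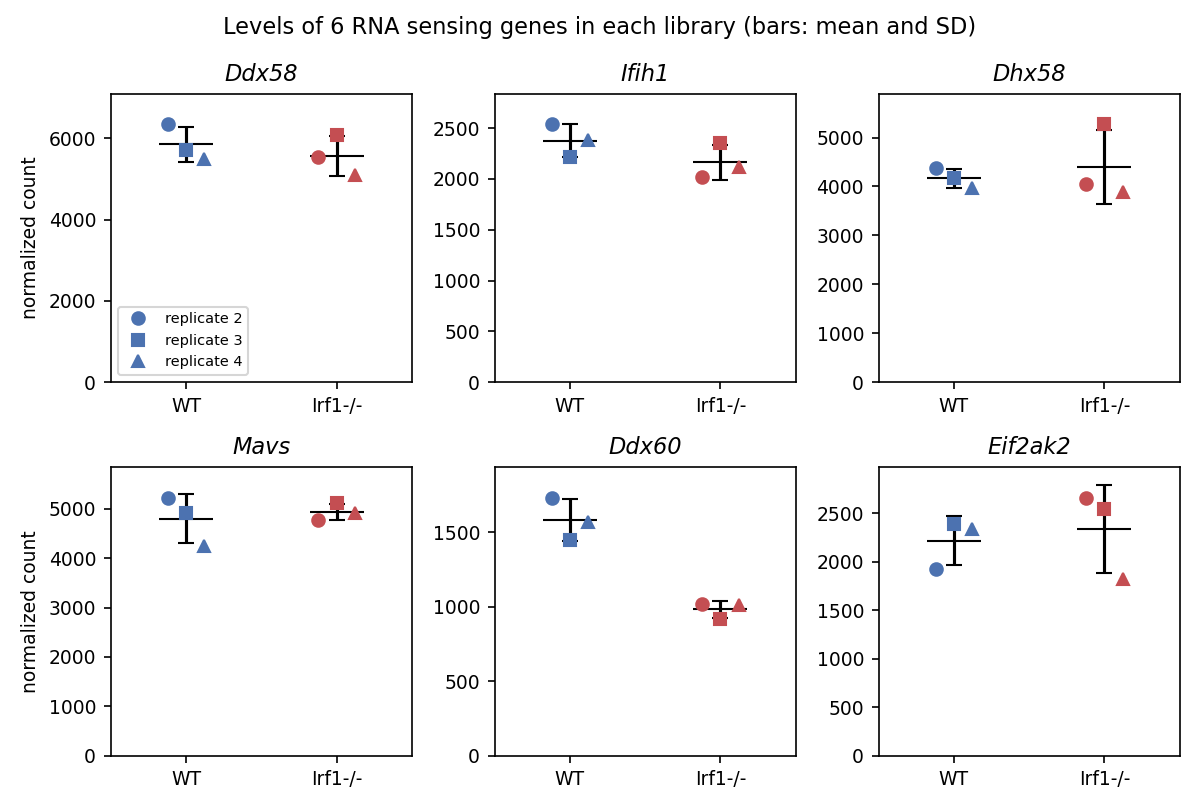
Normalized counts (vertical axes, from 0) of the 6 RNA sensing genes in 3 WT (blue) and 3 *Irf1-/-* (red) libraries, with marker shapes for replicates 2, 3, and 4 and black bars for the mean and SD. The genotypes are separate for *Ddx60*, with 1445 or more in WT and 1019 or less in *Irf1-/-* libraries, and overlap for the other 5 genes.

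*Ddx60* had 1730, 1445, and 1571 normalized counts in WT replicates 2, 3, and 4. In the *Irf1-/-* libraries with the same numbers it had 1019, 915, and 1009. The lowest WT library was above the highest *Irf1-/-* library, a separation in this direction that 9.27% of all tested genes showed. The mean fell from 1582 ± 143 (SD, *n* = 3 mice) to 981 ± 57.4, or 62.0% of the WT level. The log2 fold change was −0.69 (95% interval −0.94 to −0.43, SE 0.12, adjusted *P* = 0.00590, limma). The size of the difference was modest among these data, since 10.05% of all tested genes had a larger absolute log2 fold change. The study chose *Ddx60* among its lower genes from these same libraries, so its direction here is no independent evidence.

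The fall of *Ddx60* stayed between −0.75 and −0.62 on the log2 scale with any 1 library omitted, and it was called in all 6 of these fits (adjusted *P* from 0.0105 to 0.0378, limma). It was not called when limma was fitted without an intensity trend in the prior variance (adjusted *P* = 0.124, limma), a fit that called 33 genes lower and 7 higher among all genes. In bulk samples, fewer cells of a type and less RNA per cell cannot be told apart.

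The RIG-I-like receptors themselves did not pass the test. *Ddx58*, which encodes RIG-I, had 6341, 5703, and 5502 normalized counts in WT replicates 2, 3, and 4. The *Irf1-/-* libraries had 5532, 6072, and 5086. The genotypes overlapped, with *Irf1-/-* replicate 3 above 2 of the 3 WT libraries, and the log2 fold change was −0.073 (95% interval −0.28 to 0.13, adjusted *P* = 0.791, limma).

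*Ifih1*, which encodes MDA5, had 2535, 2213, and 2382 normalized counts in WT libraries and 2014, 2353, and 2118 in *Irf1-/-* libraries. Its average in *Irf1-/-* HSCs was 90.9% of that in WT HSCs, and again *Irf1-/-* replicate 3 lay within the WT range. *Irf1-/-* replicates 2 and 4 were below all WT libraries. The log2 fold change was −0.14, with a 95% interval that included 0 (−0.36 to 0.084, adjusted *P* = 0.587, limma).

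*Dhx58*, which encodes the receptor LGP2 without CARD domains, had 4369, 4167, and 3977 normalized counts in WT libraries. In *Irf1-/-* libraries it had 4046, 5269, and 3890, so that replicate 3 stood above all WT libraries and the other two were within or below their range. The log2 fold change was 0.065 (95% interval −0.18 to 0.31, adjusted *P* = 0.855, limma), and it was −0.071 without *Irf1-/-* replicate 3. The variation between mice was 17.2% of the mean in *Irf1-/-* HSCs and 4.70% in WT HSCs.

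*Mavs*, the mitochondrial adaptor on which both CARD receptors act, had 5221, 4915, and 4254 normalized counts in WT libraries and 4779, 5113, and 4925 in *Irf1-/-* libraries. All 3 *Irf1-/-* libraries were inside the WT range. The log2 fold change was 0.047 (95% interval −0.16 to 0.25, adjusted *P* = 0.881, limma), and −0.037 without WT replicate 4.

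*Eif2ak2*, which encodes PKR, had 1929, 2394, and 2334 normalized counts in WT libraries and 2660, 2542, and 1823 in *Irf1-/-* libraries. Here the lowest and the highest library were both *Irf1-/-*. The log2 fold change was 0.065 (95% interval −0.24 to 0.37, adjusted *P* = 0.891, limma), and the sign changed when *Irf1-/-* replicate 2 or 3 or WT replicate 2 was left out. The widest interval of these 5 genes was thus that of *Eif2ak2*, whose spread was 19.3% of the mean in *Irf1-/-* HSCs.

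For each of these 5 genes the 95% interval lay inside the fold change threshold of 0.58 on both sides, and none of these intervals overlapped that of *Ddx60*; the differences between genes were not tested. The plot of fold changes shows these intervals. As a share of the summed normalized counts of *Ddx58*, *Ifih1*, and *Dhx58* in the same library, which does not depend on the size factors, *Ddx60* was at 13.1%, 11.96%, and 13.2% in WT replicates 2, 3, and 4. In *Irf1-/-* libraries the share was 8.79%, 6.68%, and 9.10%, so the genotypes were also separate on this scale.

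**Figure D2:**
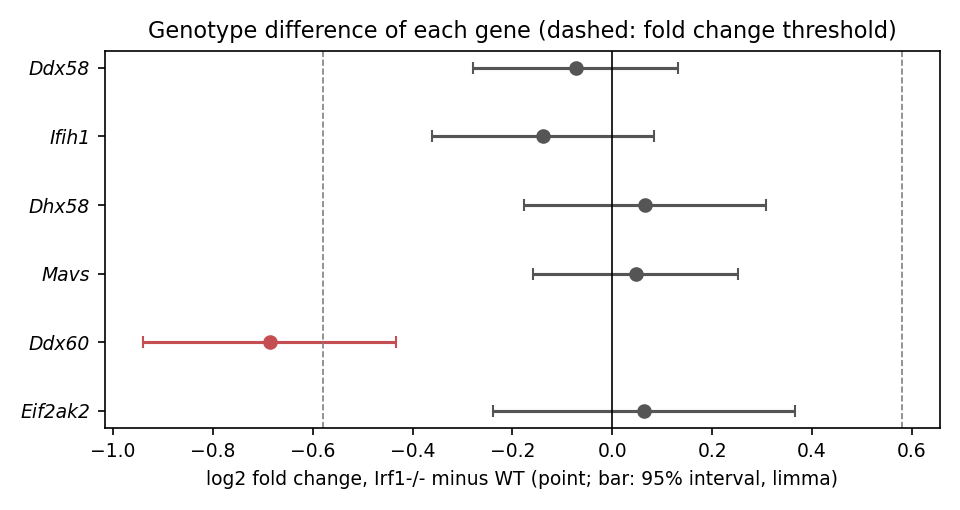
Log2 fold change (horizontal axis, *Irf1-/-* minus WT, limma) of each gene, with points for the estimate, bars for the 95% interval, and dashed lines at the threshold of 0.58 in either direction. *Ddx60* (red) lies at −0.69, and the intervals of the other 5 genes include 0.

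Levels of different genes were compared per kilobase of the longest coding transcript (GENCODE vM1, lengths only). In WT HSCs the order of the means was *Dhx58* (1657 normalized counts per kilobase), *Mavs* (1569), *Ddx58* (1510), *Eif2ak2* (514.5), *Ifih1* (434.5), and *Ddx60* (264). The ranges of the first 3 overlapped, as did those of *Eif2ak2* (447 to 555) and *Ifih1* (405 to 463.5), so the spread between mice was as wide as the gaps between these neighbours. *Ddx60* was below all the others, at 241 to 289 in WT and 153 to 170 in *Irf1-/-* HSCs. RIG-I transcripts were thus counted at a higher level per length than those of MDA5 in each of the 6 libraries, with 1313 or more for *Ddx58* and 463.5 or less for *Ifih1*.

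Of the other genes of the RIG-I-like receptor pathway, 43 of 45 listed symbols were in the table and tested, and limma called 0 of them, as did edgeR (0) and DESeq2 (0). At an unadjusted *P* under 0.05 there were 7 of 43, beside 16.5% of all tested genes. Over all 43 genes the median log2 fold change was 0.0092. At any fold change, an adjusted *P* under 0.05 was found for 2 of the 43, beside 3.22% of all tested genes. Both were below the fold change threshold, and both encode ubiquitin ligases that act on RIG-I. *Trim25*, whose product activates RIG-I, had 3380, 3586, and 4248 normalized counts in WT and 5307, 4665, and 5583 in *Irf1-/-* libraries (log2 fold change 0.47, SE 0.11, adjusted *P* = 0.0272, limma). *Rnf125*, whose product marks RIG-I and MDA5 for degradation, had 5702, 5121, and 6009 in WT and 7228, 6783, and 7952 in *Irf1-/-* libraries (0.38, SE 0.095, adjusted *P* = 0.0425, limma). For both genes every *Irf1-/-* library was above every WT library, as for 10.6% of all tested genes, and for 6 genes of this list in all.

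*Tomm70a*, which encodes a mitochondrial import receptor that binds MAVS, stood at −0.25 on the log2 scale (SE 0.083, adjusted *P* = 0.140, limma). The most abundant genes of the list were *Ppp1ca*, a phosphatase subunit (log2 fold change −0.26, adjusted *P* = 0.182, limma), *Pcbp1* (−0.18, adjusted *P* = 0.430), and *Tax1bp1* (−0.097, adjusted *P* = 0.688). None of these passed the test.

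PKR has its own regulators and targets, and all 26 listed genes of this pathway were tested. limma called 0 of them, beside 1.91% of all tested genes, and edgeR called 0. DESeq2 called 1, and over all genes it called 295 higher and 209 lower. At an unadjusted *P* under 0.05 limma had 5 of 26, beside 16.5% of all tested genes. The median log2 fold change was −0.13. The smallest *P* was that of *Trib3*, a target of the integrated stress response, with 1836, 1224, and 2134 normalized counts in WT and 2271, 2774, and 3176 in *Irf1-/-* libraries (0.69, SE 0.18, adjusted *P* = 0.0505, limma). *Eif2s1*, which encodes the substrate eIF2α, had 9781, 10554, and 7951 in WT and 6880, 7510, and 7142 in *Irf1-/-* libraries (−0.38, SE 0.10, adjusted *P* = 0.0653, limma). *Dnajc3*, which encodes the PKR inhibitor p58IPK, stood at −0.42 (SE 0.12, adjusted *P* = 0.0699, limma). Libraries of the genotypes did not overlap for any of these 3 genes, as for 9.27% of all tested genes in the lower and 10.6% in the higher direction, and none passed the limma test. Of this list, only *Trib3* exceeded the fold change threshold in limma, and whether it was called depended on the setting. The most abundant genes of the list were *Npm1* (−0.31, adjusted *P* = 0.0772) and *Adar* (0.11, adjusted *P* = 0.663, limma). *Adar* encodes the enzyme that edits adenosines in double-stranded RNA.

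DDX60, RIG-I, MDA5, and LGP2 share the helicase core of the DExD/H-box proteins, most of which act in splicing, ribosome assembly, and translation. Of the 50 other genes with *Ddx* or *Dhx* symbols, which include *Dhx29* of the RIG-I-like receptor list, 49 were tested and 0 were called by limma, 0 by edgeR, and 0 by DESeq2, where limma called 1.91% of all tested genes. At an unadjusted *P* under 0.05 there were 3 of 49, beside 16.5% of all tested genes. Over all 49 genes the median log2 fold change was −0.062, with a range from −0.44 to 0.48, so none was as low as *Ddx60*. The lowest value was that of *Ddx39a*, an mRNA export helicase, which fell short of the fold change threshold at 73.9% of the WT mean (log2 fold change −0.44, SE 0.11, adjusted *P* = 0.0373, limma). *Ddx21* (−0.34, adjusted *P* = 0.137) and *Ddx6* (−0.23, adjusted *P* = 0.243, limma) followed by *P* value. The plot of pathway genes shows these lists together.

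**Figure D3:**
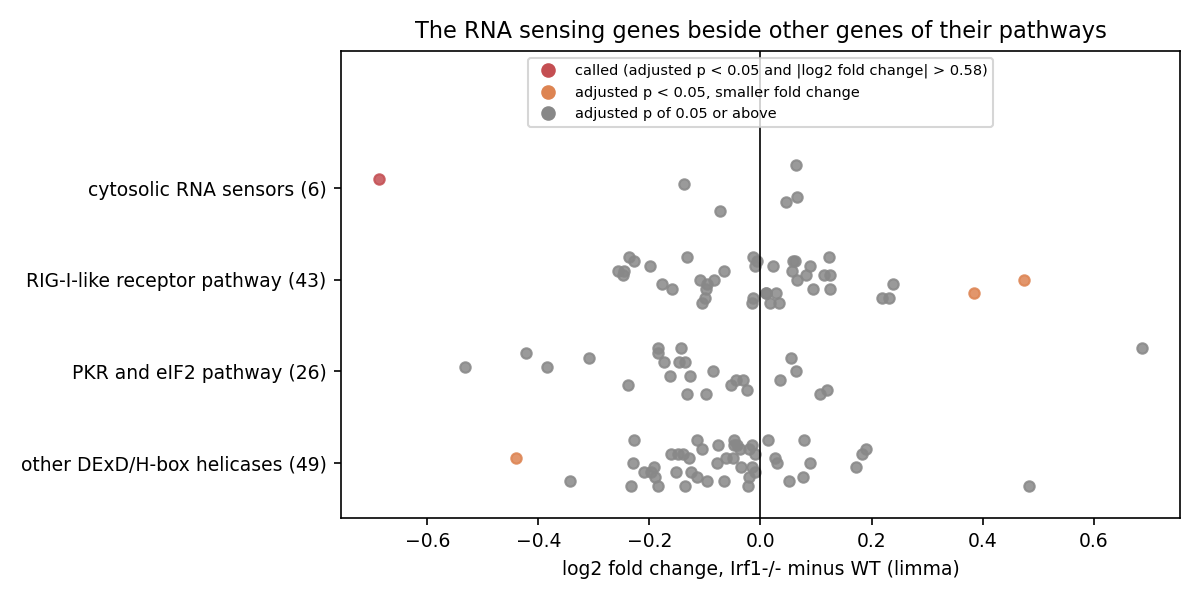
Log2 fold changes (horizontal axis, *Irf1-/-* minus WT, limma) of the 6 sensor genes, 43 other genes of the RIG-I-like receptor pathway, 26 of the PKR and eIF2 pathway, and 49 other DExD/H-box helicases, with 1 point per gene in each list (*Dhx29* is in the RIG-I-like receptor and helicase lists) and vertical offsets for legibility. *Ddx60* at −0.69 (red) is the called gene, and orange points have an adjusted *P* under 0.05 with a smaller fold change.

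Transcription factors that act upstream of the sensor genes were also compared. On the log2 scale, *Stat2* differed by 0.11 between genotypes (adjusted *P* = 0.658), and *Irf9*, which binds the ISRE together with STAT proteins, by 0.30 (SE 0.084, adjusted *P* = 0.0765, limma). The log2 fold change was −0.23 for *Irf2*, an antagonist of IRF1 (adjusted *P* = 0.217), and 0.36 for *Irf8* (adjusted *P* = 0.326, limma). These 4 genes did not pass the test.

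Transcripts of the IFN ligands at the end of the pathway were near the limit of detection in both genotypes. Of 20 ligand genes, 3 had no read in any library, 2 were abundant enough to be tested, and the other 15 had at most 14.5 normalized counts in a library. *Ifnb1* had 37.9, 1.13, and 54.9 in WT and 26.7, 6.91, and 25.95 in *Irf1-/-* libraries (log2 fold change 0.12, adjusted *P* = 0.977, limma). The means ran the other way, at 31.3 in WT and 19.8 in *Irf1-/-* HSCs, with WT replicate 3 near 0. *Ifnl3* had 2.47, 56.3, and 29.0 in WT and 55.4, 33.7, and 14.5 in *Irf1-/-* libraries (0.78, adjusted *P* = 0.750, limma). Single libraries thus differed many times over within a genotype. *Ifna4*, *Ifna14*, *Ifnab*, *Ifna15*, *Ifnl2*, *Ifna6*, *Ifna5*, *Ifna1*, and *Ifng* were the others with a mean of at least 1, and counts of the closely similar *Ifna* genes may be split between them.

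The tested genes most like *Ddx60* over the 6 libraries were *Scly*, which encodes selenocysteine lyase, *Nuak2*, a kinase gene, and *Nlrc5*, which encodes the transactivator of MHC class I genes. Likeness was the root mean square difference between centred profiles of log2(normalized count + 1) over the 6 libraries, among 12068 genes with a mean of at least 100. It was 0.064 for *Scly*, 0.067 for *Nuak2*, and 0.079 for *Nlrc5*, as the plot of centred profiles shows. In WT and *Irf1-/-* HSCs, *Scly* was at 2356 ± 172 (SD, *n* = 3 mice) and 1400 ± 103 normalized counts, *Nuak2* at 1668 ± 112 and 1036 ± 57.4, and *Nlrc5* at 5425 ± 367 and 3550 ± 343. Because these genes were chosen for their likeness to *Ddx60* over the same libraries, the choice fixed their direction, and their values are a description without a test.

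**Figure D4:**
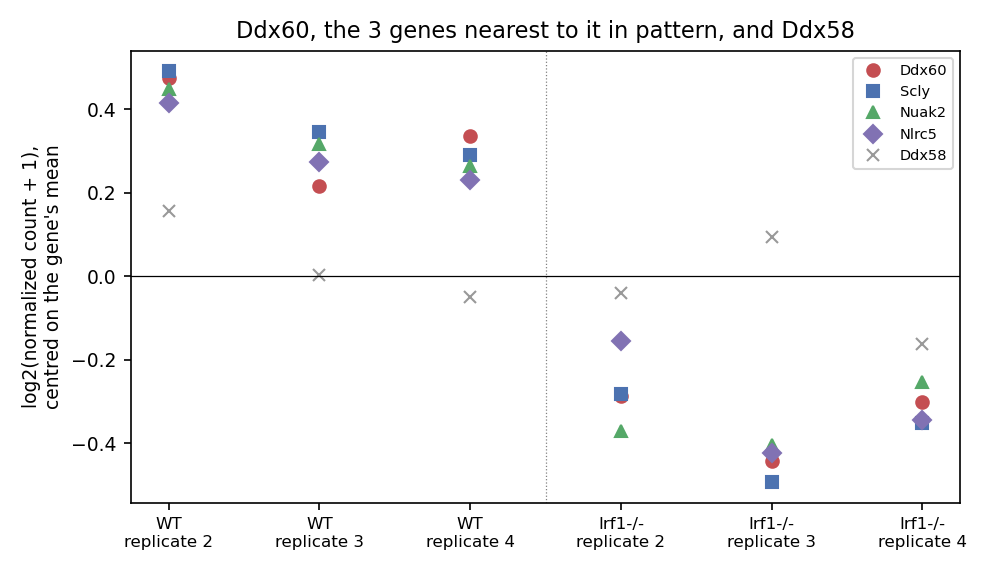
Log2(normalized count + 1) of *Ddx60*, of *Scly*, *Nuak2*, and *Nlrc5*, and of *Ddx58* for comparison, each centred on its own mean over the 6 libraries named on the horizontal axis. The first 4 genes are above 0 in all WT and below 0 in all *Irf1-/-* libraries, while *Ddx58* is on both sides in each genotype.

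Markers of other cell types were summed in each library. HSC markers summed to between 181373 and 199137 normalized counts in WT and between 192283 and 215869 in *Irf1-/-* libraries, with 1 of 8 genes called higher (*Fgd5*). Sums of 5 megakaryocyte markers ranged from 56285 to 70983 in WT and from 33651 to 51093 in *Irf1-/-* libraries, with 2 genes called lower. Those of 6 cycling cell markers ranged from 51671 to 72950 and from 35703 to 48966 (2 called lower), and those of 6 erythroid markers from 3918 to 5129 and from 1536 to 3164 (2 called lower, and 2 globin genes at 0 reads in all libraries). These 3 sums separated the genotypes in the direction of *Ddx60*, and their part in its difference was not tested. Sums of B cell, T and NK cell, neutrophil, monocyte, and dendritic cell markers overlapped between genotypes, with 1 dendritic cell marker called higher (*Flt3*) and 0 genes of the other 4 lists called. The remaining dendritic cell markers went the other way and were not called. Their log2 fold changes were −0.55 for *Siglech*, −0.23 for *Bst2*, −1.31 for *Itgax*, −0.82 for *Xcr1*, and −0.39 for *Zbtb46*. The neutrophil sums overlapped only through WT replicate 4, at 13608 beside 5183 and 6647 in the other WT libraries and 8115 to 10713 in *Irf1-/-* libraries. Outside WT replicate 4, most of each sum was *Prtn3*. It had 6255, 4841, and 6445 in WT and 7608, 7801, and 9879 in *Irf1-/-* libraries (log2 fold change 0.53, adjusted *P* = 0.0334, limma, not called). Log2 fold changes were positive for *Mpo* (0.30) and *Elane* (0.63). They were negative for *S100a8* (−0.84), *S100a9* (−0.59), *Ltf* (−1.32), and *Ngp* (−0.49). WT replicate 4 had 1033 normalized counts of *S100a8*, 2032 of *Ltf*, and 2535 of *Ngp*, where the other WT libraries had 46.9 or less of each. Without it the log2 fold change of *Ddx60* was −0.69.

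Libraries also differed apart from genotype. Principal component 1 over all tested genes (32.4% of the variance) divided the libraries into *Irf1-/-* replicates 2 and 4 with WT replicate 4 on one side, and WT replicates 2 and 3 with *Irf1-/-* replicate 3 on the other. *Ddx58* followed this division, with 5086 to 5532 normalized counts in the former and 5703 to 6341 in the latter. *Dhx58* did so too, with 3890 to 4046 and 4167 to 5269, and values of the other 4 genes overlapped. In either direction, 4234 of the 17404 tested genes were separated in this way. The log2 difference of *Ddx60* between genotypes was −0.63 within the former 3 libraries and −0.79 within the latter 3.

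**Figure D5:**
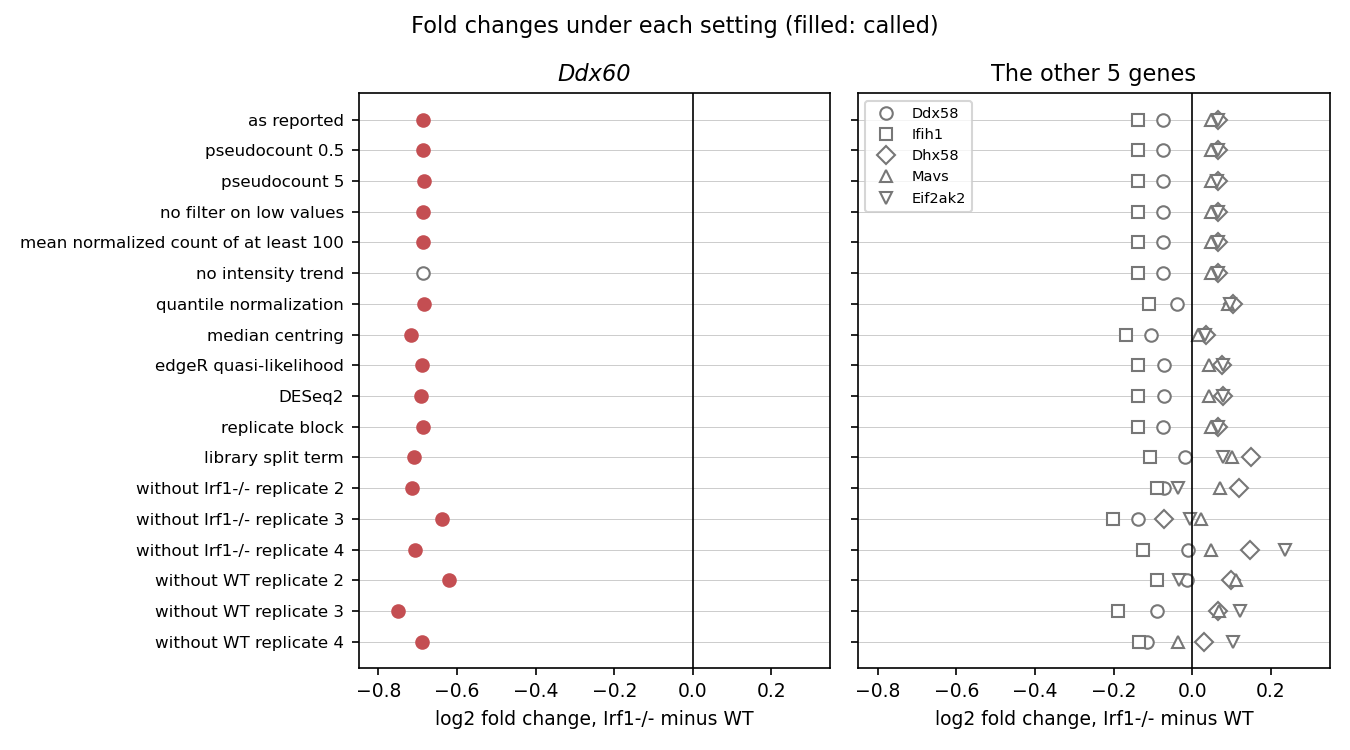
Log2 fold changes (horizontal axes, *Irf1-/-* minus WT) of *Ddx60* (left) and the other 5 genes (right) under each analysis setting, with 1 row per setting and filled symbols where the gene was called. *Ddx60* stays between −0.75 and −0.62 and is open in the fit without an intensity trend, and the other 5 genes lie around 0 and are open throughout.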

How the data were processed

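cDNA of the sorted HSCs was made with the SMART-Seq v4 kit, which adds no molecular identifiers, so intervals cover the spread between libraries and not PCR copies. Per the submitters' processing notes, the authors used Trim Galore for trimming and HISAT2 for alignment to mm39. Htseq-count then counted reads per gene, and the authors deposited these counts as a signal, that is, divided by 1 DESeq2 size factor per library. Versions, annotation, and strand setting are not given in the sources used here, so reads of overlapping genes may be shared. Dividing by the smallest value above 0 in each library, taken as 1 read, gave whole reads for 100% of values (tolerance 1e-06), between 43138521 and 59658080 per library. limma 3.58.1 in R 4.3.3 (intensity trend, Benjamini-Hochberg adjustment over all tested genes) was the main test, since normalized values had been deposited, and edgeR 4.0.16 and DESeq2 1.42.0 were run on the recovered reads. The code of the limma, edgeR, and DESeq2 fits was checked on simulated counts. These had the same dispersion for every gene and no division of libraries, so the check does not bear on the calls made here. No library was a duplicate of another of its genotype, as the counts of each such pair differed beyond counting error (chi-square per gene 16.0 to 30.0).

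Named genes are *Irf1*, the 6 sensor genes, called genes of each pathway list with the 3 of smallest *P* and the 3 most abundant, IFN ligands with a mean of at least 1, upstream transcription factors, other helicases called or among the 3 of smallest *P*, and the 3 genes nearest in pattern to a called sensor gene. Some genes that this rule names are not reported here. The sensor genes and lists were chosen with earlier results of these data known. Alternatives covered the pseudocount, the filter, the intensity trend, the normalization, the count tests, the replicate number as a block, and each library left out. A term for the division of libraries along principal component 1 was added after seeing the data. Promoter sequences came from RefSeq (GRCm38.p6), and were matched by symbol. Figures were drawn with matplotlib 3.10.9.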

Additional observations from a re-analysis of the deposited data

How the results depend on the processing

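The log2 fold changes of *Ddx58* and *Ifih1* kept their direction and stayed uncalled under all 17 alternatives. That of *Ddx60* was −0.69 without the intensity trend and not called (adjusted *P* = 0.124, limma), which left 0 sensor genes called lower, and it was called under the other 16, from −0.75 to −0.62. With single libraries left out, *Dhx58* ranged from −0.071 to 0.15, *Mavs* from −0.037 to 0.11, and *Eif2ak2* from −0.037 to 0.24, none of them called, and the cause of these changes of sign was not tested beyond the library left out. Over all genes, 7 were called higher and 33 lower without the intensity trend, 295 higher by DESeq2, and 301 higher and 260 lower without the fold change threshold. With single libraries left out, between 83 (without *Irf1-/-* replicate 4) and 305 (without WT replicate 4) were called higher, and between 105 (without WT replicate 3) and 265 (without WT replicate 4) lower. Without the fold change threshold, 2 genes of the RIG-I-like receptor pathway and 1 other helicase were called. Of the PKR and eIF2 pathway, 1 gene was called with a pseudocount of 5, with a mean of at least 100, by DESeq2, and with the replicate block, and 0 to 1 with single libraries left out. The mean filter and the replicate block leave the fold changes as they were, so the gene called there was *Trib3*. Replicate numbers were shared between genotypes, but deviations of libraries with the same number correlated at −0.094, 0.25, and 0.15, so the numbers were not taken as pairs. With the replicate number as a block, *Ddx60* was at −0.69 (adjusted *P* = 0.00531, limma). The term for the division of libraries gave −0.71 for *Ddx60*. At 3 mice per genotype the exact permutation test cannot go below 0.1.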

Other observations

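The ISRE core (GAAA, any 2 bases, GAAA) was counted in the RefSeq windows of all tested genes, from 250 bases before to 50 after the start. It was present for 30 of 117 matched genes called lower in *Irf1-/-* HSCs (25.6%), among them *Ddx60*, for 5 of 122 called higher (4.10%), and for 506 of 13682 tested genes (3.70%). The pattern TTCNNNGAA was present for 15.4% of the genes called lower, 8.20% of those called higher, and 8.38% of those tested. These shares are descriptions without a test, and the pattern was also present in 3 sensor genes that were not called.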
